A study of Homo sapiens with 12 samples.

Results

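Nuclear genes for the subunits of oxidative phosphorylation were followed in BT549 cells, a mesenchymal triple-negative breast cancer line. They were chosen by symbol: all genes named NDUFA, NDUFB, NDUFC, NDUFS, NDUFV, UQCR, COX4 to COX8 or ATP5, plus the SDH genes, without the NDUFAF assembly factors and pseudogenes. The rule uses symbols alone, though it was set with earlier results of these data known, and it took 79 of the 17958 genes compared. Complex I had 34 of them, complex II 3, complex III 7, complex IV 17 and complex V 18. The gene table names 88 protein-coding genes of these families. Another 4 (ATP5ME, NDUFA1, NDUFS5 and UQCRHL) lay only on probe sets shared by several genes, and 5 were not analysed here. The symbols also take in ATP5IF1, an inhibitor of ATP synthase, COX7A2L, which helps complexes assemble into supercomplexes, and ATP5MGL, a paralogue of the subunit gene ATP5MG.

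The 4 groups of 3 arrays were c-Jun siRNA with TNFα, control siRNA with TNFα, c-Jun siRNA with vehicle and control siRNA with vehicle. Each siRNA was given for 72 hours, and TNFα, an inflammatory cytokine, or vehicle for a further 6 hours. The c-Jun siRNA was a pool against JUN, whose protein is part of the AP-1 family of transcription factors. Total RNA was hybridised to Affymetrix human gene arrays, and values are log2 expression per probe set. The labels do not say whether replicates were separate cultures, so a p-value measures only how these samples spread, which may be technical. With 3 arrays a group, their number sets the precision. The array name of c-Jun siRNA TNFα replicate 3 reads as a second run of replicate 1, while its title gives it as a replicate. The SD of the difference over genes between these 2 arrays was 0.121, within the range of 0.119 to 0.142 for the other pairs of a group. In their own group they were the closest pair, as replicate 2 gave 0.142 against replicate 1 and 0.133 against replicate 3. Whether these 2 arrays are runs of 1 sample was not tested. They are kept as 2 samples here. Where averaging them changes a call stated here for a subunit gene or another named gene, that is given. In bulk RNA a loss of cells and a loss of RNA per cell cannot be told apart.

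Oxidative phosphorylation takes electrons from NADH through complex I and from succinate through complex II, passes them by coenzyme Q, complex III and cytochrome c to oxygen at complex IV, and uses the resulting proton gradient to make ATP at complex V. Complexes I, III, IV and V join nuclear-encoded subunits to a few encoded by mitochondrial DNA, while complex II is wholly nuclear-encoded. Cancer cells can run this system beside a high rate of glycolysis. Many of the nuclear subunit genes have processed pseudogenes, and whether a probe set also measures such copies was not tested.

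JUN itself read 10.36, 10.33 and 10.39 in c-Jun siRNA TNFα arrays, against 11.12, 11.05 and 11.05 in control siRNA TNFα arrays. With vehicle it read 9.82, 9.85 and 9.81 under c-Jun siRNA, against 10.36, 10.35 and 10.36 under control siRNA. The c-Jun siRNA lowered it in both treatments, by 0.71 ± 0.032 with TNFα and 0.52 ± 0.032 with vehicle (log2 fold change ± SE). The limma adjusted p was 9.26e-12 with TNFα and 4.48e-10 with vehicle. Its level in c-Jun siRNA TNFα arrays thus lay at the level of control siRNA vehicle arrays. All 7 mesenchymal markers had mean log2 levels of 9.78 to 12.73, while leukocyte, endothelial and muscle markers lay between 3.70 and 6.59 and luminal or epithelial markers between 3.72 and 8.81. Array medians were 5.62 to 5.68.

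Subunit genes changed little. No log2 fold change of any of the 79 genes exceeded 0.5 in a pairwise comparison, and the extremes were -0.48 for COX5B and 0.40 for NDUFB3, both with c-Jun siRNA under vehicle. Of the 79 genes, 37 were called in at least 1 of the 4 pairwise comparisons and 42 in none, a gene being called at an adjusted p under 0.05. This is 46.8%, against 51.9% of all genes and 77.7% of those whose mean level was at or above the subunit median. Among the 79, NDUFB5, NDUFB10 and UQCRB were called in all 4, as were 9.92% of all genes. By complex, the genes called at least once were 19 of 34 in complex I, 2 of 3 in complex II, 3 of 7 in complex III, 4 of 17 in complex IV and 9 of 18 in complex V, and differences between complexes were not tested. The standard error of a pairwise log2 fold change was between 0.028 and 0.105 over the 79 genes.

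**Figure D1:**
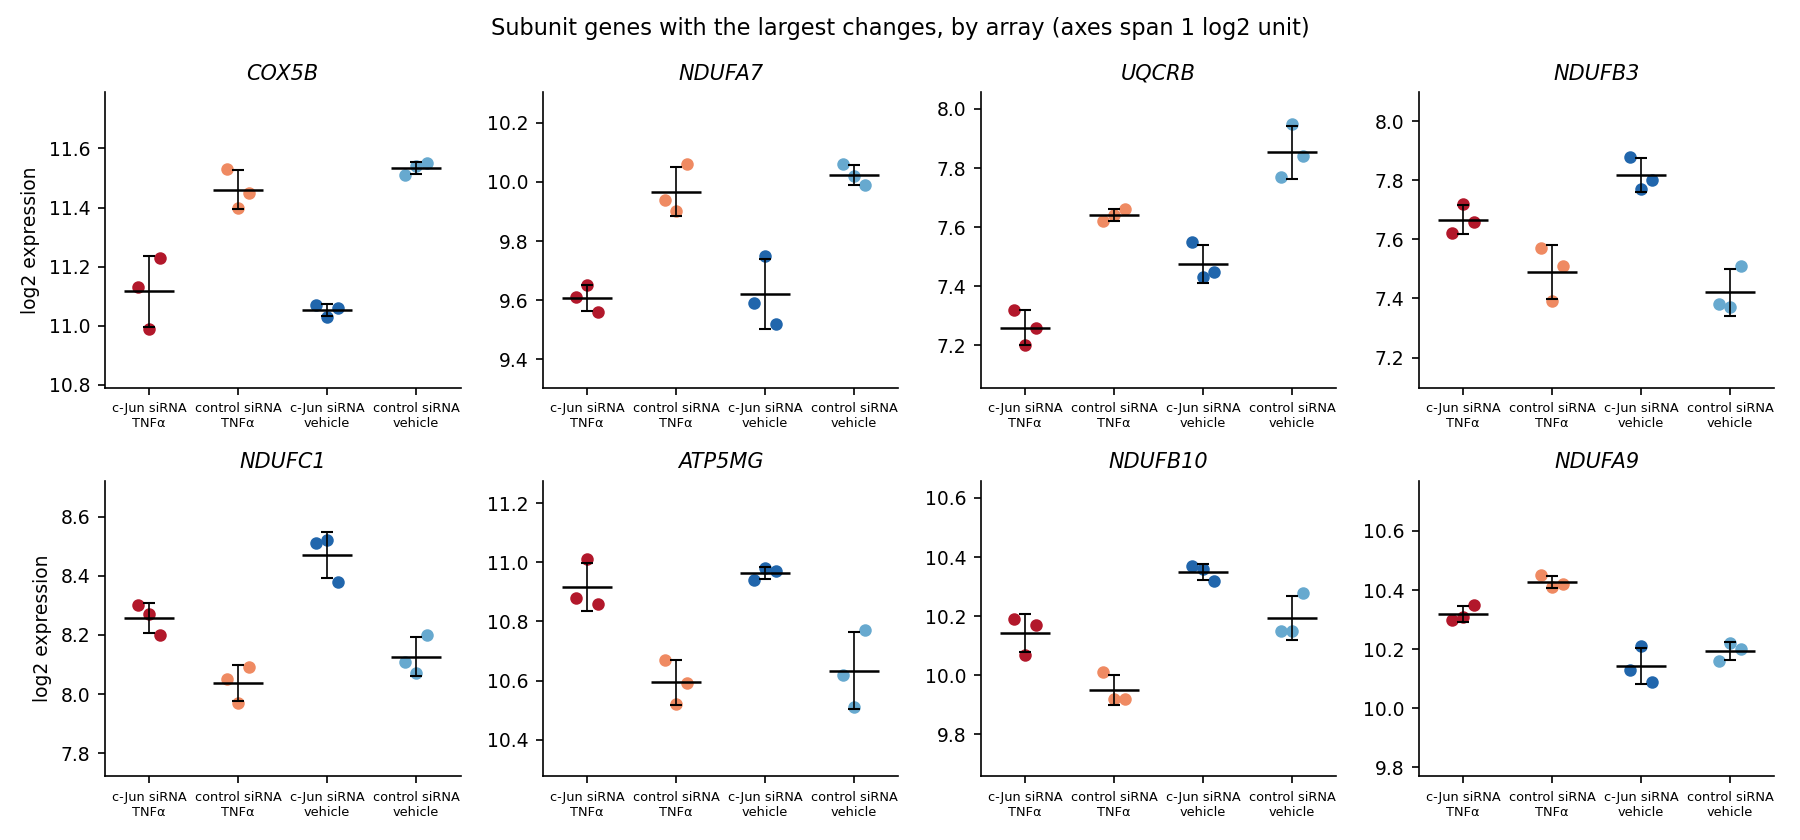
Log2 expression (vertical axes, each spanning 1 log2 unit) of 8 subunit genes in each of the 12 arrays, by group; points are arrays, the line is the mean and bars are the SD over 3 arrays. COX5B, NDUFA7 and UQCRB lie lower, and NDUFB3, NDUFC1 and ATP5MG higher, under c-Jun siRNA than under control siRNA in both treatments, with no overlap between the groups.

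Promoter windows of 300 bases (250 before to 50 after the gene's start, RefSeq, GRCh38.p14) were held for 66 of the 79 genes. The windows shown are those of the largest fall and the largest rise under c-Jun siRNA in each treatment, among genes with a window that may be shown, and they let the genes that moved most with c-Jun siRNA be read beside their motifs. Capitals mark, on either strand, the letters searched: CCGGAAG for ETS factors such as GABP, GCGCA, any base and GCGC for NRF1, AANATGGC for YY1, GGGCGG for SP1 and TGANTCA for AP-1. COX5B lies on chr2:97645812-97646111 (plus strand), NDUFB3 on chr2:201071751-201072050 (plus), NDUFA7 on chr19:8321326-8321625 (minus) and ATP5MG on chr11:118401356-118401655 (plus).
COX5B: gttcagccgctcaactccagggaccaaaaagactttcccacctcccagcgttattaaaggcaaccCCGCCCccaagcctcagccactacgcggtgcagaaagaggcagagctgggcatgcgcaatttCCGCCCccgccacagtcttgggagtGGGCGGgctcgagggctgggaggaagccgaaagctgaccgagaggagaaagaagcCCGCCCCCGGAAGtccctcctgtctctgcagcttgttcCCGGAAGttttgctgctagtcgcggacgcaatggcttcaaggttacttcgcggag
NDUFB3: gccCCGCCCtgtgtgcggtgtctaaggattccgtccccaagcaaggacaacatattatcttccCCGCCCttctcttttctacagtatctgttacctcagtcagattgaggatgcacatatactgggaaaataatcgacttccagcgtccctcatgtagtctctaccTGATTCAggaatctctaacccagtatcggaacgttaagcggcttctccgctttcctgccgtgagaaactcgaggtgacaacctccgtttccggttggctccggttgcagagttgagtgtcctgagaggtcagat
NDUFA7: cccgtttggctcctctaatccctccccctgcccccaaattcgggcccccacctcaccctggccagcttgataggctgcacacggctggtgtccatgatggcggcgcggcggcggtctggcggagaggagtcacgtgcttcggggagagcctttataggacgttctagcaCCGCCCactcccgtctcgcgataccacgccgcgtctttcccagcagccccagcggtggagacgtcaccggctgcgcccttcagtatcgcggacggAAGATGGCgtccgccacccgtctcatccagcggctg
ATP5MG: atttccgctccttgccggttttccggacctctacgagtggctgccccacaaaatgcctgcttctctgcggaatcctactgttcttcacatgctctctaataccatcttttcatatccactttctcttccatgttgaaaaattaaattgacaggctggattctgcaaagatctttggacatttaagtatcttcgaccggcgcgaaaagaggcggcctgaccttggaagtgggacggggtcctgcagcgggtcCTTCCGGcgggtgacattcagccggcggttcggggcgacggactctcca
The ETS letters stood in the windows of COX5B and ATP5MG, and the YY1 letters in that of NDUFA7. The SP1 letters stood in those of COX5B, NDUFB3 and NDUFA7. The letters searched for AP-1 allow any base in the middle, and the stretch they marked in NDUFB3 has a T there, a loose match. Over the 66 windows, ETS letters were held by 25.8%, against 10.7% of all 27305 promoters of this length. NRF1 letters were held by 22.7% against 6.3%, YY1 letters by 28.8% against 6.8%, and SP1 letters by 59.1% against 44.6%. AP-1 letters, with any base in the middle, were held by 4 windows (6.1%), against 7.8% of all promoters. Such a match is a description of the sequence and no evidence of binding.

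With control siRNA, TNFα lowered 19 of 79 subunit genes, each by a small amount, and raised 1, so that 25.3% were called, against 35.7% of all genes. The share lowered, 24.1%, was near the 21.9% of all genes, and the share raised was 1.27% against 13.8%. The median log2 fold change of the 79 was -0.06, beside -0.02 over all genes, and 64 lay below 0. With values centred on array medians these medians were -0.0346 and 0.0054. In 34 genes the TNFα and vehicle arrays did not overlap, against 45.3% of all genes. Of the 2889 genes at or above the subunit median level, 52.5% were called.

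Complex I, with 34 of the 79 genes, held 9 of the 19 falls and the only rise. NDUFB10, an accessory subunit of the membrane arm, read 10.01, 9.92 and 9.92 in TNFα arrays, against 10.15, 10.15 and 10.28 in vehicle arrays. The groups did not overlap, and NDUFB10 fell by 0.25 ± 0.043 (adjusted p = 0.000132). NDUFA9, an accessory subunit where the matrix and membrane arms meet, ran the other way, with 10.45, 10.41 and 10.42 in TNFα arrays against 10.16, 10.22 and 10.20 in vehicle arrays. This rise of 0.23 ± 0.035 had an adjusted p of 3.17e-05, and every TNFα array lay above every vehicle array. NDUFB5, another membrane-arm accessory subunit, read 10.64, 10.63 and 10.70 with TNFα and 10.78, 10.80 and 10.87 with vehicle. It fell by 0.16 ± 0.032 (adjusted p = 0.000676), again without overlap. NDUFA5, an accessory subunit of the matrix arm, fell by 0.16 ± 0.058 (adjusted p = 0.0387), a call lost under several of the alternatives. Of the 6 core subunits measured, 3 fell: NDUFV1, the NADH-binding flavoprotein (-0.15), and the iron-sulphur proteins NDUFS1 (-0.15) and NDUFS7 (-0.14). The other falls in complex I were NDUFB11 (-0.14), NDUFV3 (-0.14) and NDUFA8 (-0.12), all accessory subunits.

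In complex II, SDHA, the flavoprotein that oxidises succinate, read 11.54, 11.59 and 11.57 in TNFα arrays, against 11.75, 11.62 and 11.65 in vehicle arrays. It fell by 0.11 ± 0.032 (adjusted p = 0.013), with vehicle replicate 1 the highest array. The membrane anchors gave -0.10 for SDHD (adjusted p = 0.0524) and 0.0027 for SDHC, and neither was called. In complex III, 2 of 7 genes fell. UQCRB, a small subunit beside the coenzyme Q site, read 7.62, 7.64 and 7.66 with TNFα and 7.77, 7.95 and 7.84 with vehicle, a fall of 0.21 ± 0.059 (adjusted p = 0.00798) without overlap. UQCRC2, a core protein, fell by 0.10.

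Complex IV had 3 falls among 17 genes, all of small size: COX7A2L (-0.14, adjusted p = 0.0235), COX6B1, a subunit on the intermembrane side (-0.12, adjusted p = 0.0125), and COX7C (-0.12, adjusted p = 0.0209). Complex V had 4 among 18. ATP5IF1, which blocks the hydrolysis of ATP by the synthase, read 8.09, 8.05 and 8.05 in TNFα arrays, against 8.37, 8.19 and 8.33 in vehicle arrays, and fell by 0.23 ± 0.052 (adjusted p = 0.00156). ATP5F1D, the delta subunit of the central stalk, read 10.41, 10.47 and 10.46 with TNFα and 10.68, 10.67 and 10.63 with vehicle. It fell by 0.21 ± 0.070 (adjusted p = 0.0224), without overlap. The peripheral stalk subunits ATP5PD and ATP5PO each fell by 0.14. In ATP5PO the groups overlapped, while in the other 19 genes called they did not.

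Each array's name ends in a letter and a number, and the labels do not say what they stand for. Here the number was taken as a position column, an inference. It parts the groups in part, and whether it marks a processing batch is not known. Within column 7, which holds 2 arrays of each group, 12 of 79 genes were called, against 28.8% of all genes, with NDUFB10 at -0.23 and NDUFA9 at 0.22. Without control siRNA TNFα replicate 2 the count was 13, and with values centred on array medians it was 10.

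Under c-Jun siRNA, TNFα again lowered a small number of subunit genes, 14 of 79, and raised 1. This is 19% called, against 29.6% of all genes, with 17.7% lowered against 18.3%. The median log2 fold change was -0.06, beside -0.02 over all genes, and 66 of 79 lay below 0. Centring on array medians gave -0.0073 for the subunit genes and 0.033 for all genes. TNFα and vehicle arrays did not overlap in 24 genes, against 38.9% of all genes. Genes at or above the subunit median level were called at 43.5%.

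NDUFA9 was again the one rise, with 10.30, 10.31 and 10.35 in TNFα arrays against 10.13, 10.21 and 10.09 in vehicle arrays (0.18 ± 0.035, adjusted p = 0.000486). Complex I, with 34 of the 79 genes, held 9 of the 14 falls. NDUFC1, a membrane-arm accessory subunit, read 8.30, 8.27 and 8.20 with TNFα and 8.51, 8.52 and 8.38 with vehicle, a fall of 0.21 ± 0.055 (adjusted p = 0.00556). NDUFB10 read 10.19, 10.07 and 10.17 with TNFα and 10.37, 10.36 and 10.32 with vehicle, a fall of 0.20 ± 0.043 (adjusted p = 0.00112). Neither gene's groups overlapped. NDUFS8, an iron-sulphur core subunit, fell by 0.16 ± 0.057 (adjusted p = 0.0371), and NDUFAB1, the mitochondrial acyl carrier protein that also serves in complex I, by 0.15 ± 0.051 (adjusted p = 0.039). In NDUFS8 the 2 groups overlapped. NDUFS7, NDUFS1, NDUFV3, NDUFB5 and NDUFB11 fell by 0.11 to 0.14.

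SDHA read 11.56, 11.57 and 11.52 with TNFα and 11.67, 11.66 and 11.67 with vehicle, a fall of 0.12 ± 0.032 (adjusted p = 0.00637). SDHC read 11.72, 11.86 and 11.80 with TNFα and 11.90, 11.98 and 11.91 with vehicle, a fall of 0.14 ± 0.037 (adjusted p = 0.00595). A second SDHC probe set gave -0.005 (adjusted p = 0.976), so the probe sets of SDHC disagree. UQCRB, the only complex III gene called, read 7.32, 7.20 and 7.26 with TNFα and 7.55, 7.43 and 7.45 with vehicle, a fall of 0.21 ± 0.059 (adjusted p = 0.00912). In complex V, ATP5F1A, the alpha subunit of the catalytic head, fell by 0.16 ± 0.045 (adjusted p = 0.00956). ATP5MC3, one of a set of genes for the c subunit of the rotor ring, fell by 0.18 ± 0.067, close to the threshold (adjusted p = 0.0488). Its paralogues ATP5MC1 (-0.03) and ATP5MC2 (-0.10) were not called, nor was any of the 17 complex IV genes, whose widest change was -0.18 for COX7A1 (adjusted p = 0.116).

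No position column holds both of these groups. With the column as a fixed block none of the 79 genes was called, against 13.2% of all genes, where UQCRB gave -0.25 (adjusted p = 0.222) and NDUFB10 -0.14 (adjusted p = 0.179). Centring on array medians left 5 calls, 2 higher and 3 lower. With the 2 arrays that may be runs of 1 sample averaged, 12 genes were called, and the calls of ATP5MC3 (adjusted p = 0.0729), NDUFV3 (0.131) and NDUFAB1 (0.151) were lost.

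**Figure D2:**
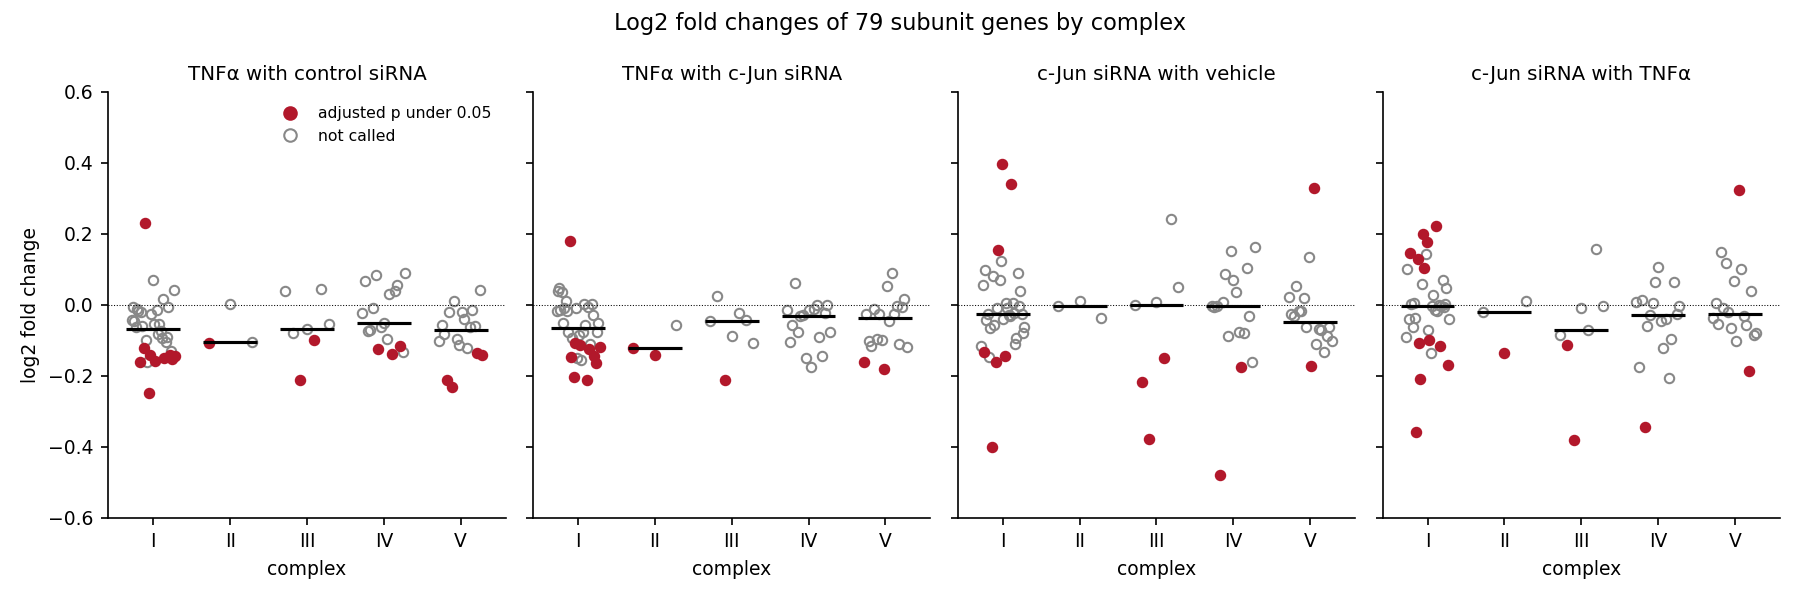
Log2 fold changes (vertical axis) of the 79 subunit genes by complex (horizontal axis) in each pairwise comparison; filled points were called, open points were not, and the line is the median of the complex. No point passes 0.25 in either direction in the TNFα comparisons, and the widest spread is that of a few genes of complexes I, III, IV and V under c-Jun siRNA.

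TNFα was measured in separate arrays under each siRNA, so its effects can be set side by side. Of the genes lowered, 8 were shared: 42.1% of those called with control siRNA and 57.1% of those called with c-Jun siRNA. They were NDUFB10, NDUFB5, NDUFB11, NDUFS1, NDUFS7, NDUFV3, SDHA and UQCRB, and the single rise, NDUFA9, was common to both. No gene was called in opposite directions. Over all genes the shared falls made up 66.6% and 79.7%. Across the 79 genes the log2 fold changes had a Pearson correlation of 0.401 and a Spearman correlation of 0.314, against 0.901 and 0.693 across all genes, which have a far wider range of change. The sign was the same for 55 of 79.

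With vehicle, c-Jun siRNA moved a few subunit genes by more than TNFα moved any. It lowered 10 of 79 and raised 4, which is 17.7% called, against 28.9% of all genes, with 12.7% lowered against 14.5% and 5.06% raised against 14.4%. The median log2 fold change was -0.03, beside -0.0073 over all genes, and 50 of 79 lay below 0. In 24 genes the groups did not overlap, against 39.2% of all genes, and 48.4% of genes at or above the subunit median level were called. This comparison shares its control arrays with that of TNFα under control siRNA.

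COX5B, a zinc-binding subunit of complex IV, read 11.07, 11.03 and 11.06 in c-Jun siRNA arrays, against 11.51, 11.54 and 11.55 in control siRNA arrays. It fell by 0.48 ± 0.046 to 71.8% of the control level (adjusted p = 1.7e-07), with a gap between the groups many times their spread. NDUFA7, a matrix-arm accessory subunit of complex I, read 9.59, 9.75 and 9.52 under c-Jun siRNA and 10.06, 10.02 and 9.99 under control siRNA, a fall of 0.40 ± 0.052 to 75.7% (adjusted p = 8.15e-06). UQCRB read 7.55, 7.43 and 7.45 under c-Jun siRNA and 7.77, 7.95 and 7.84 under control siRNA, a fall of 0.38 ± 0.059 to 76.9% (adjusted p = 5.69e-05). In neither did the groups overlap. UQCR11, another small complex III subunit, fell by 0.22 ± 0.039 (adjusted p = 0.000286), and UQCRC2 by 0.15 ± 0.031 (adjusted p = 0.000946), so that 3 of the 7 complex III genes were lower. COX7A2L fell by 0.18 ± 0.045 (adjusted p = 0.0061). ATP5MF, subunit f of the membrane domain of ATP synthase, fell by 0.17 ± 0.044 (adjusted p = 0.0056), and of its other 2 probe sets, both dimmer, one was called (-0.20, adjusted p = 0.0311) and one was not (-0.11, adjusted p = 0.257). NDUFAB1, NDUFB5 and NDUFA12 fell by 0.13 to 0.16.

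NDUFB3, an accessory subunit of the membrane arm of complex I, rose the most. It read 7.88, 7.77 and 7.80 in c-Jun siRNA arrays, against 7.38, 7.37 and 7.51 in control siRNA arrays (0.40 ± 0.061, adjusted p = 5.53e-05). NDUFC1 read 8.51, 8.52 and 8.38 under c-Jun siRNA and 8.11, 8.07 and 8.20 under control siRNA (0.34 ± 0.055, adjusted p = 8.31e-05). ATP5MG, subunit g of the membrane domain of ATP synthase, read 10.94, 10.98 and 10.97 under c-Jun siRNA and 10.62, 10.51 and 10.77 under control siRNA (0.33 ± 0.055, adjusted p = 0.00012). In all of these the c-Jun siRNA arrays lay above the control siRNA arrays. NDUFB10 rose by 0.15 ± 0.043 (adjusted p = 0.0102), a call that was lost without control siRNA vehicle replicate 1 or 2. Complex II had no call, and the widest change on the probe sets used was -0.04 for SDHD. A second, dimmer SDHC probe set gave -0.20 (adjusted p = 0.0719), against 0.01 for the one used.

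Column 5 holds all c-Jun siRNA vehicle arrays and 1 control array. Within it 6 of 79 genes were called, against 12.6% of all genes, and the values were -0.50 for COX5B, -0.37 for NDUFA7, -0.37 for UQCRB, 0.30 for NDUFB3, 0.27 for NDUFC1 and 0.19 for ATP5MG. Of these, NDUFA7, NDUFB3 and NDUFC1 had adjusted p-values of 0.0631, 0.0591 and 0.0929 there. NDUFB10 gave 0.07 (adjusted p = 0.401).

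With TNFα, c-Jun siRNA lowered 11 of 79 subunit genes and raised 7. This is 22.8% called, against 28.5% of all genes, with 13.9% lowered against 14.4% and 8.86% raised against 14.1%. The median log2 fold change was -0.02, beside 0.0011 over all genes, and 49 of 79 lay below 0. After centring on array medians they were 0.0019 and 0.0191. The groups did not overlap in 24 genes, against 38.5% of all genes, and the share called at or above the subunit median level was 46.2%.

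UQCRB, NDUFA7 and COX5B again had the largest falls. UQCRB read 7.32, 7.20 and 7.26 in c-Jun siRNA arrays, against 7.62, 7.64 and 7.66 in control siRNA arrays, a fall of 0.38 ± 0.059 to 76.8% (adjusted p = 5.53e-05). NDUFA7 read 9.61, 9.65 and 9.56 under c-Jun siRNA and 9.94, 9.90 and 10.06 under control siRNA (-0.36 ± 0.052, adjusted p = 3e-05). COX5B read 11.13, 10.99 and 11.23 under c-Jun siRNA and 11.53, 11.40 and 11.45 under control siRNA (-0.34 ± 0.046, adjusted p = 1.05e-05). Every c-Jun siRNA array lay below every control siRNA array in each of them, and COX5B varied more among the c-Jun siRNA arrays here than with vehicle. NDUFAB1 fell by 0.21 ± 0.051 (adjusted p = 0.00424). ATP5PB, a peripheral stalk subunit, fell by 0.19 ± 0.059 (adjusted p = 0.0238), and the iron-sulphur core subunit NDUFV2 by 0.17 ± 0.041 (adjusted p = 0.00397), with a second probe set at -0.18 (adjusted p = 0.00117). SDHC fell by 0.13 ± 0.037 (adjusted p = 0.00949), with its second probe set at -0.18 (adjusted p = 0.107). NDUFS3, a core subunit of the matrix arm, UQCR11, NDUFA9 and NDUFB5 fell by 0.10 to 0.12.

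Complex I accessory subunits, 28 of the 79 genes, held 6 of the 7 rises and also 4 of the 11 falls. ATP5MG, the exception, read 10.88, 11.01 and 10.86 in c-Jun siRNA arrays, against 10.67, 10.52 and 10.59 in control siRNA arrays (0.32 ± 0.055, adjusted p = 0.000146). NDUFC1 read 8.30, 8.27 and 8.20 under c-Jun siRNA and 8.05, 7.97 and 8.09 under control siRNA (0.22 ± 0.055, adjusted p = 0.00436). NDUFB10 read 10.19, 10.07 and 10.17 under c-Jun siRNA and 10.01, 9.92 and 9.92 under control siRNA (0.20 ± 0.043, adjusted p = 0.00149). None of these groups overlapped. NDUFB3 rose by 0.18 ± 0.061 (adjusted p = 0.0363), with 7.62, 7.72 and 7.66 against 7.57, 7.39 and 7.51, and the call was lost without any 1 of 4 arrays (control siRNA TNFα replicates 2 and 3, c-Jun siRNA TNFα replicates 2 and 3). NDUFA13 (0.15, adjusted p = 0.0471), NDUFA8 (0.13, adjusted p = 0.0188) and NDUFB11 (0.10, adjusted p = 0.00921) made up the rest.

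Within column 7, which has 1 c-Jun siRNA array and 2 control arrays, 2 of 79 genes were called, against 5.18% of all genes. Within column 9, with 2 c-Jun siRNA arrays and 1 control array, none was called, against 0% of all genes. COX5B gave -0.43 and -0.35, UQCRB -0.45 and -0.33, NDUFA7 -0.33 and -0.35, and ATP5MG 0.45 and 0.20 in columns 7 and 9. With the 2 possible runs averaged, 13 genes were called, while NDUFB3 (adjusted p = 0.0527), UQCR11 (0.0554), NDUFB5 (0.0582), NDUFS3 (0.0825) and NDUFA13 (0.127) lost theirs.

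The effects of c-Jun siRNA with vehicle and with TNFα also come from separate arrays. Falls shared by both were 6, namely COX5B, NDUFA7, UQCRB, UQCR11, NDUFAB1 and NDUFB5, which is 60.0% of those called with vehicle and 54.5% of those called with TNFα. Over all genes the shared falls made up 62.4% and 62.8%, close to these shares. All 4 genes raised with vehicle (NDUFB3, NDUFC1, ATP5MG and NDUFB10) were among the 7 raised with TNFα (57.1%), while over all genes the shared rises made up 67.6% and 68.9%. No gene was called in opposite directions, and the sign was the same for 52 of 79. Across the 79 genes Pearson's correlation of the log2 fold changes was 0.795 and Spearman's 0.628, against 0.748 and 0.600 across all genes.

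**Figure D3:**
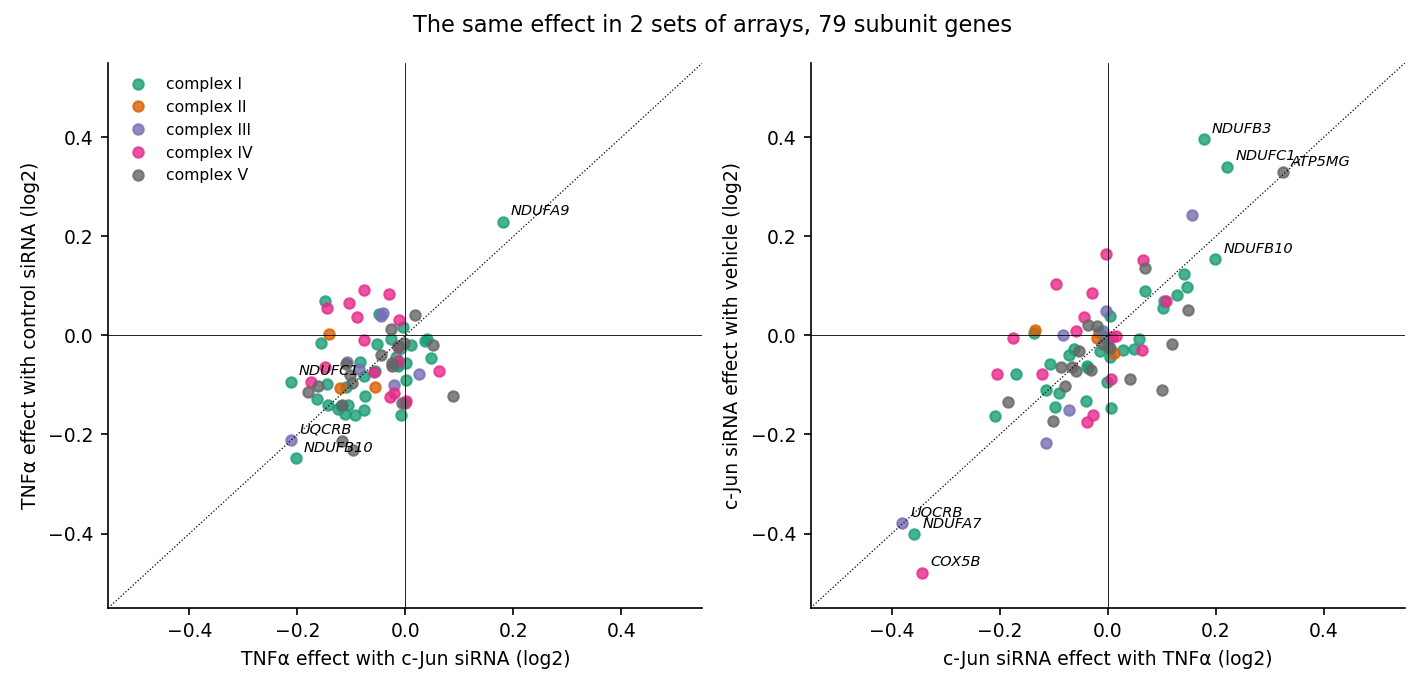
Log2 fold changes of the 79 subunit genes, with the TNFα effect under control siRNA (vertical axis) against that under c-Jun siRNA (horizontal axis) on the left, and the c-Jun siRNA effect with vehicle (vertical axis) against that with TNFα (horizontal axis) on the right; points are genes coloured by complex, and the dotted line marks equal effects. COX5B, NDUFA7 and UQCRB at the lower left and NDUFB3, NDUFC1 and ATP5MG at the upper right stand apart in the right panel.

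Whether TNFα acted differently under the 2 siRNAs was tested by the interaction, the TNFα effect under c-Jun siRNA minus that under control siRNA. None of the 79 genes was called by limma, against 5.47% of all genes and 8.83% of those at or above the subunit median level, and 4 of 79 had an unadjusted p under 0.05, against 16.5% of all genes. Values ran from -0.22 (NDUFB3) to 0.21 (ATP5MGL). The 4 genes were SDHC (-0.15, adjusted p = 0.139), NDUFB3 (-0.22, adjusted p = 0.187), ATP5PD (0.13, adjusted p = 0.23) and COX7A2L (0.14, adjusted p = 0.296). A second SDHC probe set gave 0.02 (adjusted p = 0.963), so its probe sets disagree here too. For NDUFB3 the 95% confidence interval was -0.40 to -0.04, and for COX5B, at 0.13, it was -0.001 to 0.27. Leaving out single arrays gave up to 2 calls: COX5B (0.20) and SDHC (-0.18) without c-Jun siRNA TNFα replicate 2, COX7A2L (0.20) without c-Jun siRNA vehicle replicate 2, and ATP5PD (0.18) without control siRNA vehicle replicate 2.

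Array by array, the median deviation of the 79 genes from their own 12-array means was -0.03, -0.05 and -0.02 in c-Jun siRNA TNFα arrays and -0.0071, -0.05 and -0.004 in control siRNA TNFα arrays. It was 0.01, 0.02 and 0.0094 in c-Jun siRNA vehicle arrays and 0.04, 0.04 and 0.05 in control siRNA vehicle arrays. TNFα arrays thus lay below vehicle arrays under both siRNAs, with no overlap. The same held over all genes on a smaller scale, with medians of -0.0112 to -0.0048 in the TNFα arrays and -0.0014 to 0.017 in the vehicle arrays. Among genes at or above the subunit median level it held under control siRNA only. Under c-Jun siRNA their medians were 0.0052, -0.0073 and -0.0067 with TNFα, and -0.0007, 0.0083 and 0.0074 with vehicle.

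Isoforms of complex IV that belong to heart, skeletal muscle, lung or testis (COX4I2, COX6A2, COX6B2, COX7A1, COX7B2 and COX8C) had mean levels of 3.61 to 5.90, and none was called in any comparison. Their widely expressed counterparts COX4I1, COX6A1, COX7A2, COX7B and COX8A were not called either, and COX6B1 was called only for TNFα with control siRNA. COX4I1, a nuclear subunit that joins early in the assembly of complex IV, stayed between 8.34 and 8.49 in all 12 arrays. Its changes ranged from -0.02 to 0.0072. NDUFA4 and NDUFA4L2 carry newer symbols in the gene table (COXFA4 and COXFA4L2), so the naming rule did not take them, and neither was called in any of the 5 comparisons.

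Larger changes than those of the subunits were found among other genes of the pathway. The counts of each list stand beside shares of all genes: TNFα with control siRNA raised 13.8% and lowered 21.9%, c-Jun siRNA with vehicle raised 14.4% and lowered 14.5%, and c-Jun siRNA with TNFα raised 14.1% and lowered 14.4%. Among 13 genes for cytochrome c, cytochrome c1 and coenzyme Q synthesis, TNFα raised 1 (7.69%) and lowered 5 (38.5%) with control siRNA, and c-Jun siRNA raised 4 (30.8%) and lowered 3 (23.1%) with vehicle. CYCS, cytochrome c itself, read 8.40, 8.53 and 8.37 in c-Jun siRNA TNFα arrays and 8.18, 8.14 and 8.29 in control siRNA TNFα arrays. With vehicle it read 8.19, 8.22 and 8.22 under c-Jun siRNA and 7.55, 7.67 and 7.76 under control siRNA. It rose with TNFα by 0.54 ± 0.060 under control siRNA (adjusted p = 7.47e-07) and 0.22 ± 0.060 under c-Jun siRNA (adjusted p = 0.00793), and with c-Jun siRNA by 0.55 ± 0.060 with vehicle (adjusted p = 1.09e-06). The interaction was -0.32 (adjusted p = 0.0334), a call lost with the 2 possible runs averaged (adjusted p = 0.081) and under several other alternatives. COQ2, COQ7 and PDSS2, which take part in coenzyme Q synthesis, rose with c-Jun siRNA in both treatments (0.23 to 0.29). For PDSS2 the call of this rise with TNFα was lost with the 2 possible runs averaged (adjusted p = 0.0612). TNFα itself lowered PDSS2, to a mean of 6.013 from 6.409 under control siRNA and to 6.287 from 6.641 under c-Jun siRNA. COQ8B fell by 0.27 with c-Jun siRNA under vehicle. The TNFα effect under control siRNA was -0.36 for COQ8B, -0.32 for COQ3 and -0.27 for COQ5.

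Among 18 complex IV assembly genes, c-Jun siRNA raised 3 with vehicle (16.7%, near the share of all genes) and 5 with TNFα (27.8%) and lowered none, while TNFα raised 4 (22.2%) and lowered 3 (16.7%) with control siRNA. SCO1, a copper chaperone for complex IV, read 9.94, 10.03 and 9.91 in c-Jun siRNA TNFα arrays and 9.51, 9.57 and 9.45 in control siRNA TNFα arrays. Under vehicle the values were 9.73, 9.73 and 9.70 with c-Jun siRNA and 9.01, 8.98 and 9.08 with control siRNA. It rose by 0.70 ± 0.042 with c-Jun siRNA under vehicle (adjusted p = 3.87e-10) and by 0.49 ± 0.042 with TNFα under control siRNA (adjusted p = 2.53e-08), with an interaction of -0.26 (adjusted p = 0.0134). COX15, an enzyme of heme a synthesis, fell by 0.37 ± 0.035 with TNFα under control siRNA (adjusted p = 7.72e-08). In that comparison COA5 fell by 0.39 ± 0.0635 (adjusted p = 7.53e-05) and COA7 rose by 0.34 ± 0.0501 (adjusted p = 2.02e-05). COX18, which inserts a core subunit, rose by 0.48 ± 0.067 with c-Jun siRNA under TNFα (adjusted p = 1.89e-05).

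TIMMDC1, which helps build the membrane arm of complex I, read 11.63, 11.66 and 11.57 under c-Jun siRNA with TNFα and 11.11, 11.08 and 11.14 under control siRNA with TNFα. It rose by 0.51 ± 0.034 there (adjusted p = 1.75e-09) and by 0.52 ± 0.034 with vehicle (adjusted p = 1.05e-09). NDUFAF4, another complex I assembly factor, rose with TNFα by 0.29 under control siRNA and 0.30 under c-Jun siRNA. Of the 15 complex I assembly genes, c-Jun siRNA raised 2 (13.3%) and lowered 1 (6.67%) with vehicle, and TNFα raised 1 (6.67%) and lowered 4 (26.7%) with control siRNA. Among 13 assembly genes of complexes II, III and V, TNFα lowered 4 (30.8%) and c-Jun siRNA lowered 1 (7.69%), SDHAF2 at -0.18, under the same conditions, with no rise. One of the 4, UQCC3 (adjusted p = 0.0485), lost its call with the 2 possible runs averaged (adjusted p = 0.053).

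Of 15 regulators of mitochondrial transcription, TNFα raised 5 (33.3%) and lowered 2 (13.3%) with control siRNA. PPARGC1A, a coactivator of mitochondrial gene expression, read 4.74, 4.45 and 4.56 in c-Jun siRNA TNFα arrays, against 5.43, 5.06 and 5.41 in control siRNA TNFα arrays. With vehicle it read 5.73, 5.50 and 5.74 under c-Jun siRNA and 5.81, 6.07 and 6.15 under control siRNA. It fell with TNFα by 0.71 ± 0.114 under control siRNA (adjusted p = 5.69e-05) and by 1.07 ± 0.114 under c-Jun siRNA (adjusted p = 5.63e-07). Mean levels of PPRC1 and PPARGC1B, also on this list, were higher with TNFα than with vehicle. Under control siRNA they were 10.371 against 10.025 for PPRC1 and 7.195 against 6.884 for PPARGC1B. Under c-Jun siRNA they were 10.364 against 10.111 for PPRC1 and 6.953 against 6.752 for PPARGC1B. All PPARGC1A values were low, below the median gene level of 6.97. They lay within the range of the leukocyte, endothelial and muscle markers (3.70 to 6.59), and whether they stand above background was not tested. GABPB1, a subunit of the ETS factor GABP, rose with TNFα by 0.82 ± 0.046 under control siRNA (adjusted p = 7.13e-11) and 0.42 ± 0.046 under c-Jun siRNA (adjusted p = 9.88e-07), with an interaction of -0.40 (adjusted p = 0.000694). TWNK, the mitochondrial DNA helicase, rose by 0.53 and 0.21 in these comparisons (interaction -0.32, adjusted p = 0.00252). TFAM, which packages and transcribes mitochondrial DNA, rose with c-Jun siRNA by 0.22 with vehicle and 0.31 with TNFα, while TFB2M fell by 0.17 and 0.25.

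In the tricarboxylic acid cycle, 1 of 11 genes rose with TNFα under control siRNA (9.09%) and 3 with c-Jun siRNA under vehicle (27.3%), with no fall. IDH3A rose by 0.37 ± 0.036 (adjusted p = 2.02e-07) and DLD by 0.33 ± 0.052 (adjusted p = 6.5e-05) with c-Jun siRNA under vehicle. Of 9 carrier and channel genes, TNFα lowered 3 (33.3%) under control siRNA, among them SLC25A4, the ATP and ADP carrier (-0.29), and UCP2 (-0.19), and c-Jun siRNA raised VDAC1 by 0.18 with vehicle. The 13 subunits encoded by mitochondrial DNA were not analysed here.

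**Figure D4:**
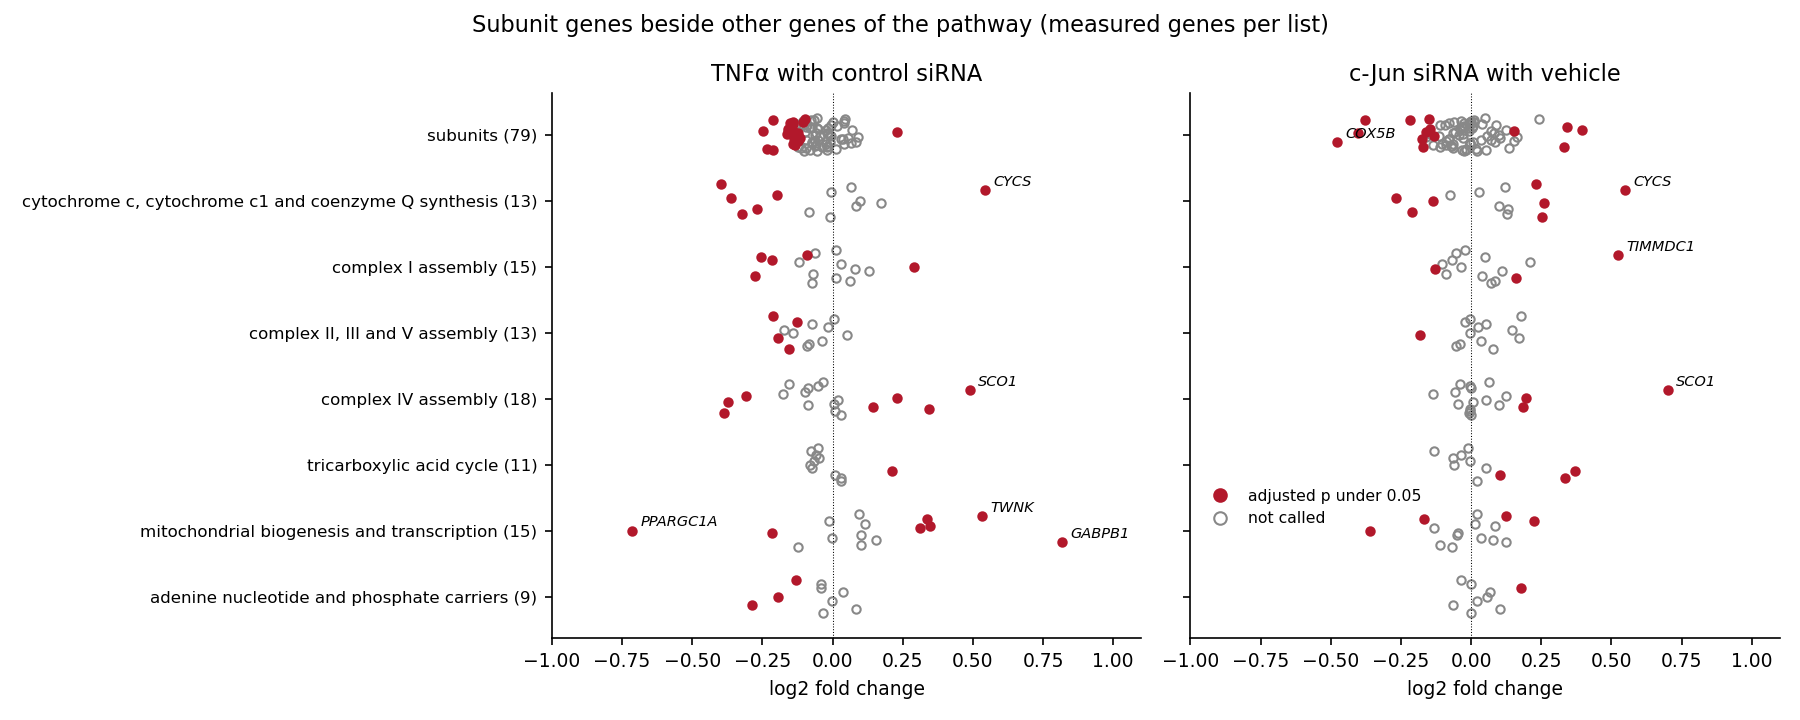
Log2 fold changes (horizontal axis) of the 79 subunit genes and of 7 lists of other genes of the pathway (rows, with the number of genes measured) for TNFα with control siRNA (left) and c-Jun siRNA with vehicle (right), which share their control arrays; filled points were called. PPARGC1A, GABPB1, CYCS and TWNK on the left and SCO1, CYCS and TIMMDC1 on the right pass 0.5 in either direction, while no subunit gene does.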

How the data were processed

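Per the labels' protocols, total RNA of 12 BT549 samples was labelled and hybridised to Affymetrix gene arrays. The submitters' processing notes name Affymetrix Expression Console 1.1 and PLIER, without roles. The deposited values were used as log2 expression per probe set, the base being inferred from their range, and were not normalised further. Of 33297 probe sets, 19181 had 1 gene symbol, 2055 several and 12061 none here. Where a gene had several probe sets (895 genes), the one with the highest mean over 12 arrays was used, which gave 17958 genes without a filter on dim ones.

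A linear model with 1 mean for each group was fitted over the 12 arrays with limma 3.58.1 (R 4.3.3), using a mean-variance trend (8 residual and 9.29 prior degrees of freedom). Tests were two-sided, p-values were adjusted by Benjamini-Hochberg across the 17958 genes, and a gene was called at an adjusted p under 0.05. Errors are standard errors of this fit. The fit was tested on simulated data. Members, lists, the rule for named genes and the alternatives were chosen with earlier results of these data known. That rule takes the 6 largest called rises and falls per comparison, the widest change per complex, complex II and isoform sets. It also takes up to 3 called genes per pathway list and pairwise comparison, of which only some are given here. Other subunit genes called are given by size. Python 3.11.15, pandas 2.3.3 and matplotlib 3.10.9 served for tables and plots.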

Additional observations from a re-analysis of the deposited data

Results flagged for a closer look

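No subunit gene had a TNFα effect that differed between c-Jun siRNA and control siRNA in the limma interaction test. Of the 94 genes of the pathway lists, 7 did (7.45%, against 5.47% of all genes), as did JUN: the TNFα effect under c-Jun siRNA minus that under control siRNA was -0.40 for GABPB1 (adjusted p = 0.000694), -0.32 for TWNK (0.00252), -0.24 for IDH3A (0.00661), -0.26 for SCO1 (0.0134), -0.19 for JUN (0.0173), 0.19 for COX15 (0.0279), -0.32 for CYCS (0.0334) and 0.36 for COX18 (0.0335). With the 2 possible runs of c-Jun siRNA TNFα averaged, COX15 (adjusted p = 0.0547), COX18 (0.0588) and CYCS (0.081) were no longer called.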

How the results depend on the processing

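Alternatives covered scaling (quantile, centring on array medians), a floor or a filter for dim genes, averaging the probe sets of a gene, other variance models, a threshold of 0.01, blocks by replicate number or position column, an average of 2 arrays that may be runs of 1 sample, and each array left out. Counts of called subunit genes moved by over 1.5 times as follows. For TNFα with control siRNA (20), centring gave 10, no mean-variance trend 13, the 0.01 threshold 9 and column 7 alone 12. For TNFα with c-Jun siRNA (15), centring gave 5, no trend 9, the 0.01 threshold 9 and the column as a fixed block 0. For c-Jun siRNA with TNFα (18), no trend gave 11, the 0.01 threshold 10, column 7 alone 2 and column 9 alone 0, where JUN gave -0.74 (adjusted p = 0.0727). For c-Jun siRNA with vehicle (14), column 5 alone gave 6. Median log2 fold changes moved with centring to -0.0346 and -0.0073 for TNFα with control and c-Jun siRNA, 0.0019 for c-Jun siRNA with TNFα and 0.0307 for the interaction, while the median over all genes became 0.0054, 0.033, 0.0191 and 0.0266. The median became -0.042 for TNFα with c-Jun siRNA under the fixed block and -0.031 for c-Jun siRNA with TNFα in column 7. The causes were not tested. TIMMDC1 reversed for TNFα with c-Jun siRNA under the fixed block (0.0028, against -0.11). With the 2 possible runs averaged, its limma call in that comparison was lost (-0.0954, adjusted p = 0.0693).

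With arrays left out in turn, counts ran from 13 to 23 for TNFα with control siRNA, 11 to 16 for TNFα with c-Jun siRNA, 13 to 17 for c-Jun siRNA with vehicle, 12 to 19 for c-Jun siRNA with TNFα and 0 to 2 for the interaction. Medians ran, in the same order, from -0.0773 to -0.0492, -0.063 to -0.0438, -0.0267 to -0.0168, -0.0282 to -0.007 and -0.0043 to 0.0172, and JUN from -0.5361 to -0.517 with vehicle and -0.7268 to -0.6875 with TNFα. The replicate numbers were not taken as pairs. Same-numbered arrays of different groups deviated with correlations of -0.059 to 0.088, and differently numbered ones with -0.118 to 0.157. With 3 arrays a group, this cannot show whether same-numbered samples were handled together. With the replicate number as a block the counts were 20, 14, 15, 18 and 0, and JUN fell by 0.52 and 0.71. Over the named genes, 10832 values under alternatives kept direction and side of the threshold, 591 lost a call and 93 gained one. The number of arrays limits what the counts can show, as does the position column, since none holds both c-Jun siRNA groups.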
